A study of Mus musculus with 10 samples.

Results

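The retinaldehyde dehydrogenase genes of the Aldh1a group are described here together with the retinoic acid binding proteins and the retinoic acid receptors, 9 genes in all. They were found by symbol, and all 9 had a row both among the 19333 genes of the oligodendrocyte precursor table and among the 22064 genes of the immune cell tables. The 4 dehydrogenases are Aldh1a1, Aldh1a7, Aldh1a2 and Aldh1a3, the 2 binding proteins are Crabp1 and Crabp2, and the 3 receptors are Rara, Rarb and Rarg. Aldh1a1 and Aldh1a7 were chosen by their higher log2 fold changes with Apc deletion in these data, so their values in that comparison are a description without a test of their own.

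RNA sequencing covered 10 mouse libraries. Oligodendrocyte precursor cells (OPCs), the cells that give rise to myelinating oligodendrocytes, were purified by immunopanning and kept for 3 days in medium with PDGFAA. 3 of these cultures carried Olig2-Cre:Apc-fl/fl and 3 came from Apc-fl/fl littermates, called wild type, so both genotypes carry the floxed alleles and only the first carries the recombinase, which acts in cells that express Olig2 or descend from such cells. The other 4 libraries were sorted on day 18 from spinal cords of Pdgfra-CreER:Apc-fl/fl mice with experimental autoimmune encephalomyelitis (EAE), an immune model of multiple sclerosis. The 3 libraries labelled cytotoxic macrophages were sorted as CD11b+, Gr-1+ and NK1.1+, and the last, of CD4+ cells, is labelled Th1. All 4 carry the same genotype, whose recombinase acts in Pdgfra-expressing cells and their descendants once induced. The sources used here state neither the induction, nor the number of animals behind a library, nor the age of the mice.

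Retinoic acid is made from vitamin A in a chain of steps. Retinol is taken up, oxidized reversibly to retinaldehyde by retinol dehydrogenases, and then oxidized irreversibly to retinoic acid by the retinaldehyde dehydrogenases. The acid is carried in the cytoplasm by CRABP proteins, binds retinoic acid receptors that act on DNA as partners of retinoid X receptors, and is broken down by CYP26 enzymes. In the nervous system retinoic acid patterns the hindbrain and spinal cord, and retinoid signals are known to act on oligodendrocyte differentiation.

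Aldh1a1 and Aldh1a7 lie next to each other on mouse chromosome 19. On GRCm38 in GENCODE M21, Aldh1a1 spans chr19:20492715-20643465 on the plus strand and Aldh1a7 spans chr19:20692953-20727562 on the minus strand, with 49.5 kb between their facing 3' ends. Their coding sequences have the same length, 1506 bases, and are 91.6% identical, with 126 differing bases. Among the other pairs of the 4 dehydrogenases the coding identity was between 68.2% and 70.1%, so Aldh1a7 is much closer to Aldh1a1 than any other pair of them. Crabp1 and Crabp2 were 70.8% identical, and the receptor pairs were between 72.5% and 76.3% identical.

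The degree of likeness bears on whether a read can be assigned to one gene of the pair. The longest stretch of coding sequence that both share without a difference is 100 bases, at coding positions 757 to 856 of each, counted from the A of the start codon.
Aldh1a1 and Aldh1a7: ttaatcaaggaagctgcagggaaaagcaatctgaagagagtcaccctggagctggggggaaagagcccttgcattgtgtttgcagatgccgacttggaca
The stretch of 90 coding bases with the most differences, positions 310 to 399, has 19, shown in capitals.
Aldh1a1: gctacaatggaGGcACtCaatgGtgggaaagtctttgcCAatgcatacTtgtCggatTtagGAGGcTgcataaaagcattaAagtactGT
Aldh1a7: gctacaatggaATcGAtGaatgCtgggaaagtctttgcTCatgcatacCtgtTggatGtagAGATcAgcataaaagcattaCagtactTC
Of all windows of 150 bases in the Aldh1a7 transcript, the read length given in the labels, 0% occurred unchanged in an annotated Aldh1a1 transcript, against 7.49% of windows of 50 bases and 13.8% of windows of 31 bases. A whole read that covers its full length without an error therefore carried at least 1 base that differs, while shorter aligned pieces need not. The sources used here do not say how reads that match both genes were counted, so the split between the 2 genes is uncertain.

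The sequences before the starts of the pair are shown because both genes were higher together. RefSeq (GRCm38.p6) gives 2 starts for Aldh1a1 and 1 for Aldh1a7. The 250 bases before the start of Aldh1a7 (chr19:20727557-20727806, minus strand) and before the downstream start of Aldh1a1 (chr19:20601718-20601967, plus strand) share an unbroken run of 65 bases, in capitals, at positions -94 to -30 of each.
Aldh1a1, downstream start: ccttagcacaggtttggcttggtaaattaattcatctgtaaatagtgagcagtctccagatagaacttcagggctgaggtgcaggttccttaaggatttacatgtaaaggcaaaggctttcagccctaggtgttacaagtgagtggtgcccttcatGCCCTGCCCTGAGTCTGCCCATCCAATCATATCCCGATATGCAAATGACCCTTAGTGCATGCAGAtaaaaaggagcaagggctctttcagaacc
Aldh1a7: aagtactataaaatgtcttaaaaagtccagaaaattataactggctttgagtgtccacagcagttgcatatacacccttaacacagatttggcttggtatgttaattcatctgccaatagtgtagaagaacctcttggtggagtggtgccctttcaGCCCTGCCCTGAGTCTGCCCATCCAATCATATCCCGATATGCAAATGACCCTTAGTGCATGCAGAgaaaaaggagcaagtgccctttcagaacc
Over the last 100 bases before the start the 2 sequences differ at 6 positions. The upstream start of Aldh1a1 (chr19:20492333-20492582, plus strand) shares no run over 8 bases with that of Aldh1a7.
The core recognized by TCF/LEF factors, the DNA-binding partners of beta-catenin, was searched as CTTTGA or CTTTGT on both strands, 2 words that cannot overlap each other on one strand, and matches are in capitals.
Aldh1a1, upstream start: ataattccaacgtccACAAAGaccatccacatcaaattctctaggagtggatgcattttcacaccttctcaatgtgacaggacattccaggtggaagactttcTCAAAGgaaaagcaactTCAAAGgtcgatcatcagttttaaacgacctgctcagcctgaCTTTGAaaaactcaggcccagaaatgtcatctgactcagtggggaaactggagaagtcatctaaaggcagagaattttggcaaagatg
In windows of 300 bases, from 250 before to 50 after a start, the upstream Aldh1a1 start held 4 matches, the downstream start 0 and Aldh1a7 held 1, at -206 to -201. At least 1 match stood in 31.2% of the 32851 windows in the RefSeq table and 4 or more in 0.167%. The cut of 4 is the count seen at the upstream Aldh1a1 start, so that share is no test of rarity. The windows were not matched for base composition, and G and C made up 43.3% of the upstream Aldh1a1 window. A match of these letters is a description of the sequence and says nothing about binding, and the deposited gene values do not tell which Aldh1a1 start was used.

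Of the 12 windows that belong to 7 members, 1 further window held TCF/LEF cores, a Rara start with 2. The direct repeat with a spacing of 5 (DR5), searched on both strands as a form of the retinoic acid response element, matched once among them, in Rarb (chr14:16575477-16575576, minus strand), at positions -53 to -37, where the capitals mark it. It is shown because Rarb is a textbook target of its own ligand and serves below as a readout.
Rarb: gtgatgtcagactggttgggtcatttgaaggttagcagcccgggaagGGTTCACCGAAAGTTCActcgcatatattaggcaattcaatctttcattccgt
Such a DR5 match stood in 0.0974% of all windows, and the form with a spacing of 2 (DR2), in 0.268% of all and in 0 of the windows of members. Crabp2 and Aldh1a3 were not in that table.

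Values of single OPC cultures cannot be shown, because their deposited file is a comparison without a value per library. Per gene it lists the mean in normalized counts (reads scaled for sequencing depth), the log2 fold change, the standard error (SE) of that change, and p-values. The table does not name its numerator, so Sp5, Lef1, Notum and Axin2, feedback genes that Wnt signalling induces, served to set the direction. Their log2 fold changes in the authors' deposited table were 2.10, 1.89, 4.90 and 1.01 after the sign was turned to Apc-deleted over wild type. Apc itself stood at -0.14 (SE 0.13) in the authors' deposited table, a value for the whole gene that does not isolate the floxed part and so checks neither the deletion nor the sign. Depth per culture is unknown. The series text says that raw files of 5 of the 6 OPC libraries were replaced after the first deposit, and the sources used here do not say from which version the table was made. The OPC markers Pdgfra, Cspg4, Olig2, Sox10 and Olig1 had means of 2251, 1046, 2301, 2085 and 11343 normalized counts in the authors' deposited table. The 6 neuronal markers ran from 8117 for Snap25 to 122255 for Tubb3 in the authors' deposited table. The label OPC is therefore kept as a label. In such bulk samples fewer cells of a type and less RNA per cell cannot be told apart. Genotype means below were computed from the deposited mean and fold change on the assumption that the mean covers 3 libraries per genotype with equal weight.

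Aldh1a1, the cytosolic retinaldehyde dehydrogenase, had a mean of 659 normalized counts in the authors' deposited table, which implies 395 in wild type and 923 in Apc-deleted cultures. Its log2 fold change was 1.23 (SE 0.21) in the authors' deposited table (adjusted p = 2.87e-06), that is 2.34-fold with a 95% interval from 1.77 to 3.09. Aldh1a7, a duplicate of Aldh1a1 whose enzyme is known for little activity on retinaldehyde, was rarer, with a mean of 76.0 in the authors' deposited table and implied means of 38.0 and 114 normalized counts. Its log2 fold change was 1.59 (SE 0.32) in the authors' deposited table (adjusted p = 0.000454), or 3.00-fold (1.94 to 4.66). The intervals of the 2 genes overlap, with a difference of 0.36 between their log2 fold changes that was not tested, since both come from the same libraries and share sequence. By unadjusted p they ranked 19 and 40 among all genes.

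These 2 were the members called, that is with the adjusted p of the authors' deposited table under 0.05, 2 of 9 in the higher direction, against a background of 0.393% of all genes called higher and 0.548% called in either direction. Because the choice of the pair used this contrast, nothing is read from that difference. At the edge of the threshold, Cybb was just inside (adjusted p = 0.0499, log2 fold change 1.32) and Aard just outside (adjusted p = 0.0518, log2 fold change 1.02) in the authors' deposited table. The SE of Aldh1a1 was 1.497 times the median SE of 200 genes of similar mean, and that of Aldh1a7 was 1.25 times.

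Aldh1a2 and Aldh1a3, the other enzymes that make retinoic acid in the embryo and in adult tissues, did not pass, with the adjusted p listed as 0.999993 for them and for every further member below. Aldh1a2 had a mean of 57.0 normalized counts and a log2 fold change of -0.08 (SE 0.35) in the authors' deposited table. Aldh1a3 had a mean of 38.2 and a log2 fold change of -0.33 (SE 0.35) in the authors' deposited table. Their 95% intervals ran from -0.77 to 0.61 and from -1.01 to 0.36 on the log2 scale.

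**Figure D1:**
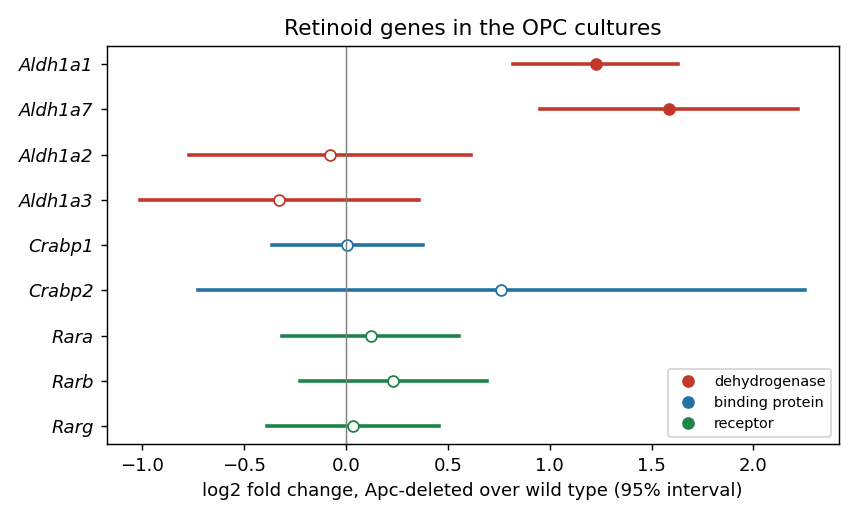
Log2 fold change of each of the 9 genes, Apc-deleted over wild type, from the authors' deposited table, with 95% intervals from its standard errors as lines; filled points passed an adjusted p of 0.05 and colours give the role of the gene. Aldh1a1 (1.23) and Aldh1a7 (1.59) lie wholly above 0, and the intervals of the other 7 genes cross it.

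Per kilobase of transcript, Aldh1a1 took most of the signal of the 4 enzymes in both genotypes. Its implied level was 167 normalized counts per kb in wild type and 391 in Apc-deleted cultures. Aldh1a2 followed in wild type at 25.9 per kb, then Aldh1a7 at 18.4 and Aldh1a3 at 12.4. In Apc-deleted cultures the order of the lower 3 was different, with Aldh1a7 at 55.2, Aldh1a2 at 24.5 and Aldh1a3 at 9.86 per kb. The share of Aldh1a1 was 74.7% of the 4-gene sum in wild type and 81.4% in Apc-deleted cultures, and that of Aldh1a7 was 8.21% and 11.5%. The sum itself was 224 and 481 normalized counts per kb, 2.15-fold higher in Apc-deleted cultures. No spread can be given for these sums, because the table holds no value per library and the chosen members fix their direction.

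**Figure D2:**
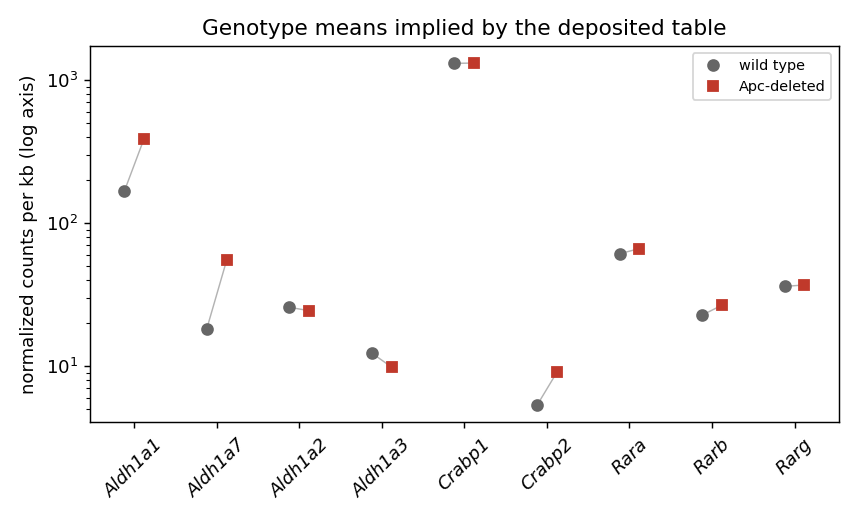
Implied mean level of each gene in wild-type (circles) and Apc-deleted (squares) cultures, in normalized counts per kb of the longest coding transcript, on a log axis and without error bars because no value per library was at hand. Aldh1a1 and Aldh1a7 move up between genotypes (167 to 391 and 18.4 to 55.2), while Crabp1 is the most abundant member in both.

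Crabp1, a cytoplasmic carrier of retinoic acid that is linked to its breakdown, was the most abundant member in the cultures. It had a mean of 1055 normalized counts in the authors' deposited table, or 1315 per kb, within the top 4.61% of all genes by that measure. Its log2 fold change was 0.01 (SE 0.19) in the authors' deposited table, with a 95% interval from -0.36 to 0.38. Crabp2, the carrier that hands retinoic acid to nuclear receptors, was near the bottom of the table, with a mean of 6.71 normalized counts. Its log2 fold change of 0.76 (SE 0.76) in the authors' deposited table had an interval from -0.73 to 2.25, which includes a loss as well as a several-fold gain. Per kb the mean of Crabp1 was 182 times that of Crabp2.

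None of the 3 receptors passed. Rara had a mean of 216 normalized counts and a log2 fold change of 0.12 (SE 0.22) in the authors' deposited table. Rarg had 108 and 0.03 (SE 0.21), and Rarb had 77.0 and 0.23 (SE 0.23) in the authors' deposited table. Per kb the order was Rara at 63.9, Rarg at 36.6 and Rarb at 24.8 normalized counts, a description without a spread. The interval of Rarb, whose start carries the DR5 match printed above, ran from -0.23 to 0.69 on the log2 scale. Of the 7 members other than the pair, 5 had a 95% interval that excluded a 2-fold change in either direction, the exceptions being Aldh1a3 and Crabp2.

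The rest of the retinoid pathway was read from lists of genes for uptake, oxidation, carotenoid cleavage, breakdown, nuclear partners, alternative binding and target genes. Among 40 measured genes of these lists outside the 9 members, 0 passed the authors' adjusted p in the authors' deposited table, and 4 had an unadjusted p under 0.05, where the background over all genes is 3.63%. Their median log2 fold change was -0.04, against 0.00 for all genes. The interval excluded a 2-fold change for 23 of the 40.

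Of the genes upstream of the dehydrogenases, Rdh10, the main retinol dehydrogenase of the embryo, had the lowest p. Its log2 fold change was 0.63 (SE 0.19), and it did not pass (unadjusted p = 0.00104, adjusted p = 0.141) in the authors' deposited table. Dhrs3, which turns retinaldehyde back to retinol, stood at 0.62 (SE 0.30, unadjusted p = 0.0377, adjusted p = 0.999993) in the authors' deposited table. In all, 0 of 10 measured retinol oxidation and retinal reduction genes passed, with a median of -0.08. Of the 8 measured uptake and storage genes 0 passed, and their median was 0.08. Dgat1, an acyltransferase that can esterify retinol, had a value of 0.21 (SE 0.12) in the authors' deposited table. The carotenoid cleavage enzymes Bco1 and Bco2 were barely present, with means of 4.91 and 4.30 normalized counts in the authors' deposited table.

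Downstream, Cyp26b1 was the only measured enzyme of retinoic acid breakdown among the 3 listed. It had a mean of 620 normalized counts and a log2 fold change of -0.14 (SE 0.14) in the authors' deposited table. Of 17 measured target genes of retinoic acid, Rarb and Crabp2 among them, 0 passed. Of these 9 pointed higher and 8 lower, and the median log2 fold change was 0.0050. The target with the largest change at a low p besides Dhrs3 was Tgm2, a transglutaminase, at -0.55 (SE 0.27, unadjusted p = 0.0404, adjusted p = 0.999993) in the authors' deposited table. None of the 5 retinoid X receptor and corepressor genes passed, with Rxra at 0.20 (SE 0.19) and Ncor1 at -0.05 (SE 0.09) in the authors' deposited table. Fabp5 and Ppard, a carrier and a receptor that offer retinoic acid another route, were at -0.08 (SE 0.13) and -0.15 (SE 0.26) in the authors' deposited table. Of 15 measured aldehyde dehydrogenases outside the Aldh1a group 0 passed, with a median of -0.0024. Aldh3a1 had the lowest p of these, at 2.45 (SE 1.28, unadjusted p = 0.0557) from a mean of 3.06 normalized counts in the authors' deposited table, next to Aldh3b2 at -0.73 (SE 0.54).

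**Figure D3:**
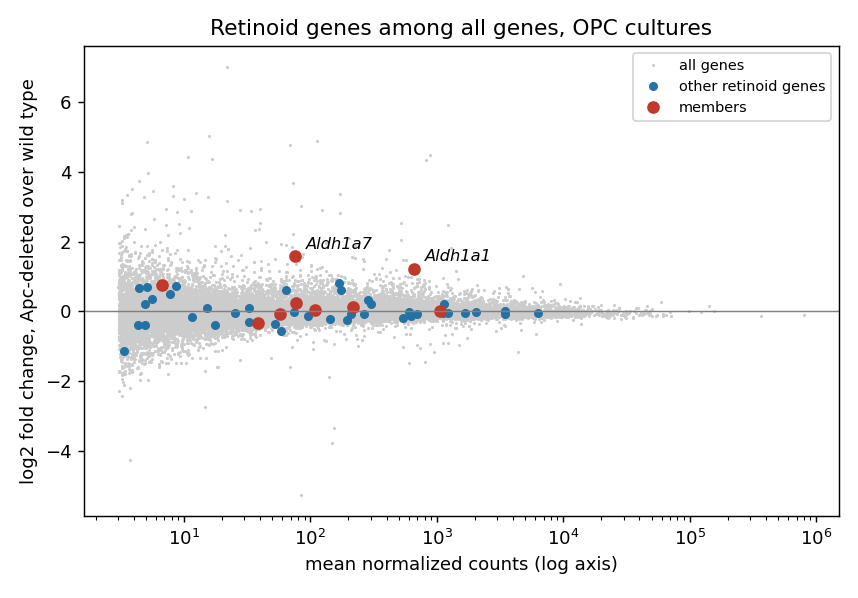
Log2 fold change, Apc-deleted over wild type, against the mean normalized count (log axis) for all 19333 genes (grey), the 40 other retinoid genes (blue) and the 9 members (red), from the authors' deposited table. Aldh1a1 and Aldh1a7 stand above the grey band at their mean levels of 659 and 76.0, and none of the blue points was called.

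Along the chromosome, the 3 measured genes on each side of the pair were compared with it. Anxa1, which encodes annexin A1 and whose start lies at -102 kb from that of Aldh1a1, had a log2 fold change of 0.38 (SE 0.49) in the authors' deposited table, with a mean of only 14.7 normalized counts. Rorb and Trpm6, farther on that side, were at -0.16 (SE 0.12) and 0.09 (SE 0.49) in the authors' deposited table. On the other side Zfand5, Gda and 1110059E24Rik, whose starts are between 780 and 1160 kb away, were at -0.05 (SE 0.11), -0.14 (SE 0.13) and 0.02 (SE 0.18) in the authors' deposited table. None of these 6 neighbours passed. The interval of Anxa1 ran from -0.59 to 1.35, and those of the 3 genes beyond Aldh1a7 stayed below 0.37.

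**Figure D4:**
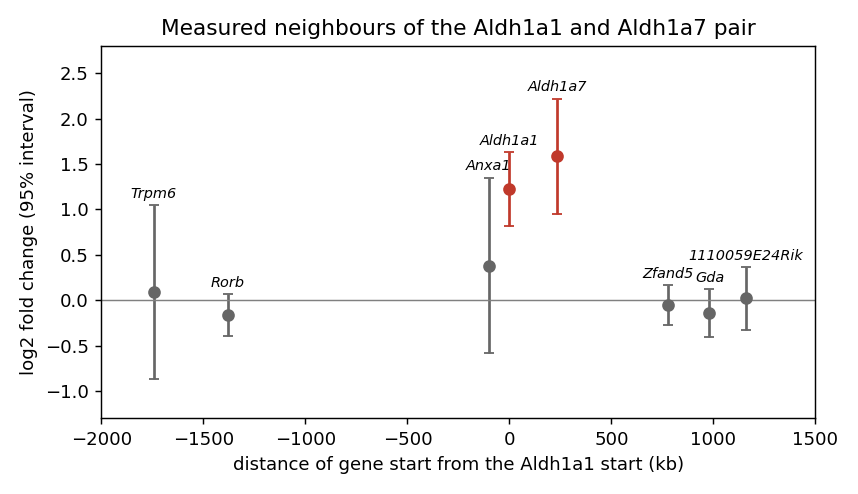
Log2 fold change with 95% interval of the pair (red) and of the 3 nearest measured genes on each side (grey) against the distance of each gene start from the Aldh1a1 start in kb. Both red points lie above 1 and all grey points lie between -0.16 and 0.38.

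The genes called higher whose log2 fold change was nearest to that of Aldh1a1 were Fbln1 (1.22, SE 0.33), Nr4a1 (1.25, SE 0.33), Ppp1r3b (1.20, SE 0.31), Fzd10 (1.27, SE 0.27) and Baz1a (1.17, SE 0.26) in the authors' deposited table. They encode a matrix protein, a nuclear receptor, a glycogen-targeting phosphatase subunit, a Wnt receptor and a chromatin remodelling subunit. The likeness is the difference between log2 fold changes in 1 contrast, at most 0.06 on the log2 scale, and covers no other condition.

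Some markers of phagocytes moved in the same comparison as Aldh1a1 and Aldh1a7. All 6 macrophage markers pointed higher and 2 passed in the authors' deposited table, Lyz2 (4.33, SE 0.96) and Cd68 (1.54, SE 0.36). The summed implied level of the 6 was 1560 in wild type and 3322 in Apc-deleted cultures, in normalized counts, and none was at 0. Most of that difference came from Lyz2 alone, with implied means of 78.1 and 1568. Csf1r, at 767 and 772, and Mertk, at 582 and 582, made up most of the wild-type sum. The other 4 did not pass, with Cd14 at 1.78 (SE 0.61, unadjusted p = 0.00368), Adgre1 at 1.87 (SE 0.65, unadjusted p = 0.00433), Csf1r at 0.01 (SE 0.16) and Mertk at 0.00 (SE 0.15) in the authors' deposited table. Of the 6, 4 thus had an unadjusted p under 0.05, where the background over all genes is 3.63%. The SE of Lyz2 was 7.12 times the median SE of genes of similar mean. For Cd68, Adgre1, Cd14, Csf1r and Mertk that ratio was 1.98, 1.47, 1.42, 1.13 and 1.06, and for Aldh1a1 it was 1.497. In the 3 sorted macrophage libraries Lyz2 and Cd68 reached 22679 ± 122 and 207 ± 6.1 TPM (SD, n = 3), and Aldh1a1 and Aldh1a7 had no read. Those libraries were also rich in neutrophil transcripts, and they come from spinal cords with EAE, not from the cultures. For the other 8 marker lists no gene passed in the authors' deposited table. Their median log2 fold changes were 0.25 for OPC, -0.06 for neuron, -0.05 for dopaminergic neuron, -0.06 for astrocyte, -0.09 for endothelial, -0.06 for meningeal fibroblast, -0.10 for neutrophil and 0.16 for T cell markers. Dopaminergic neurons, endothelial cells and meningeal fibroblasts are listed because they can express Aldh1a enzymes. The part of other cell types in the values of Aldh1a1 and Aldh1a7 was not tested.

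In the sorted immune cells the levels are given per library in TPM (a share of all transcripts, corrected for their length) and in estimated reads. Estimated reads came to between 23174908 and 23564215 per macrophage library, and to 3051730 for the library labelled Th1. The macrophage libraries differed from each other by more than counting noise and were kept as 3 samples, but no source says that they came from separate animals, so their spread may be technical. Neutrophil markers summed to between 374821 and 378384 TPM in the macrophage libraries. Of 7 T cell markers, Lck alone had a read in the library labelled Th1, and Cd4 and Cd3e, which define the sort and the lineage, had none. That library also held myeloid transcripts. Macrophage markers summed to 11835 TPM in it, against 22858 to 23095 TPM in the macrophage libraries, and neutrophil markers summed to 17628 TPM in it. Both names are therefore kept as labels only.

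No dehydrogenase of the group was expressed at a level above the detection floor in the macrophage libraries. Aldh1a1, Aldh1a7 and Aldh1a3 had no read in any of them, and Aldh1a2 had 0, 0 and 1 read. A count of 0 allows, by counting error alone, up to 3 reads, which is 0.0427 CPM (reads scaled to a common library total) over the 3 libraries together. In the library labelled Th1, Aldh1a1, Aldh1a7 and Aldh1a2 had no read, where the floor is 0.983 CPM, and Aldh1a3 had 5 reads and 0.48 TPM. Set against the macrophage floor over the group, those 5 reads put Aldh1a3 38.3-fold higher in the library labelled Th1, the smallest ratio over 3 scalings. That ratio leaves out the counting error of the 5 reads, so it is not a lower bound. Aldh1a1 and Aldh1a7 were thus without a read in all 4 immune libraries.

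The binding proteins were not detected above the floor either. Crabp1, the most abundant member in the cultures, had no read in any immune library. Crabp2 had no read in the macrophage libraries and 1 read, 0.41 TPM, in the library labelled Th1.

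The receptors differed from the enzymes, and Rara led them in the macrophage libraries. Rara was at 7.83, 8.30 and 7.83 TPM, a mean of 7.99 ± 0.27 (SD, n = 3), above 82.9% of the genes with a read there. Rarg was at 1.65, 1.77 and 1.78 TPM, or 1.73 ± 0.072 (SD, n = 3). Rarb was at 0.03, 0.05 and 0.06 TPM from 4, 7 and 8 reads. The levels of the 3 receptors did not overlap between genes in any of the libraries, with Rara between 4.40 and 4.75 times the level of Rarg. Rara took between 81.0% and 82.3% of the summed TPM of the 3 receptors. Rara and Rarg were the members at or above 1 TPM, 2 of 9. Over the 14326 genes with a mean TPM above 0 there, the median was 0.79 TPM and 75% lay below 4.09 TPM. Nothing is read from the count of members.

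In the library labelled Th1, Rara had 1 read, or 0.10 TPM, and Rarb and Rarg had none. Of the 9 members 2 passed the filter on low counts for the comparison of that library with the macrophage libraries, Rara and Rarg, and they passed it through the macrophage libraries, where they are high, so their being lower was set by the filter and nothing is read from the count. Calls used edgeR's quasi-likelihood test with Benjamini-Hochberg adjustment. In that fit Rara had a log2 fold change of -5.62, which rests on 1 read in the library labelled Th1. DESeq2 gave Rara -4.11 (SE 1.45). Rarg, without a read in the library labelled Th1, stood at -10.26 with edgeR and at -4.15 (SE 2.08) with DESeq2, whose Wald test ends its call. Both were called lower at 4-fold or more by edgeR, against a background of 54.6% of all tested genes called lower and 68.2% called in either direction. The median log2 fold change of all tested genes in that comparison was -5.61, so relative to it Rara differed by -0.01, with 49.96% of genes lower than Rara. With library totals alone in place of TMM scaling that median was -6.25 and Rara stood at -7.10, and with DESeq2's size factors the median was -4.32 and Rara at -4.11. As a ratio of CPM, Rara was 140-fold lower, with an exact 95% counting interval from 25.1 to 5519. With the library labelled Th1 set at its floor, Rarg was 1.09-fold lower there by the smallest ratio over the 3 scalings. By library totals Rarg was 8.77-fold lower. These ratios leave out the counting error of the macrophage reads. With 1 library on a side, the test assumes that this library varies like the macrophage libraries.

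**Figure D5:**
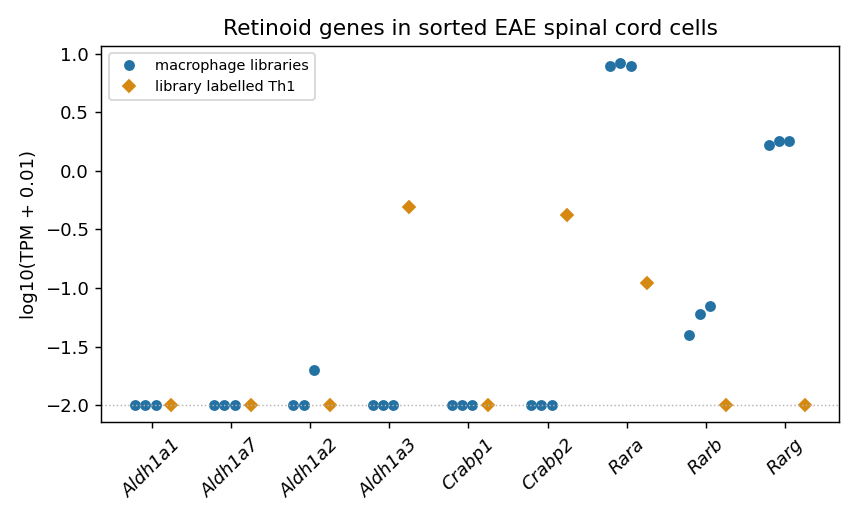
Level of each gene as log10(TPM + 0.01) in the 3 macrophage libraries (circles) and the library labelled Th1 (diamonds); the dotted line at -2 marks no read or a TPM of 0. Rara and Rarg stand high in the macrophage libraries alone, and the dehydrogenases and binding proteins lie at or near the line there.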

How the data were processed

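The members and gene lists were chosen with earlier results of these data known. RNA was sequenced from 10 libraries, with GRCm38 as the genome, per the submitters' processing notes. Aligner and counter: not given in the sources used here. For the OPC cultures the authors deposited, per the file headers, mean normalized counts (a signal), log2 fold changes, their SEs and test statistics (each a score), and p-values of 1 comparison. They were used as deposited. For the immune libraries the authors deposited TPM and estimated counts per gene, per the file headers; 8 further columns (FPKM and normalized read counts) were not used. Blanks were taken as 0 and counts rounded. The column codes of the macrophage files name no replicate.

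Intervals are the log2 fold change plus or minus the normal 95% range of its SE. The design had allowed for counts per OPC library, which would have been tested with edgeR; with a comparison table no such test was made. Th1 was compared with edgeR 4.0.16 (TMM, filterByExpr, 11447 genes), with DESeq2 1.42.0 as an alternative, in R 4.3.3. The test was run on simulated counts drawn from the macrophage profile with few genes changed. Such counts do not cover a comparison in which most genes differ. The exact interval of the Rara ratio and the floors cover counting error only. Lengths are of the longest coding transcript in GENCODE M21, whose gene versions differ in part from those of the OPC table. Sequences are from RefSeq GRCm38.p6 and GENCODE M21. Named genes are all members, the called or 2 lowest-p genes of each list, the 5 called genes nearest to Aldh1a1 in log2 fold change, and 3 measured neighbours on each side. Of the marker lists, medians are given. A gene that this rule names is not reported here. Alternatives were other gene sets for adjustment, Holm adjustment, centring, other scalings, filters and tests, and leaving out each macrophage library. Python 3.11.15, pandas 2.3.3, numpy 2.4.6, scipy 1.17.1, Biopython 1.88 and matplotlib 3.10.9 were used.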

Additional observations from a re-analysis of the deposited data

How the results depend on the processing

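Aldh1a1 and Aldh1a7 kept their call when p-values were adjusted over genes with a mean of at least 10 normalized counts, by Holm's method and after centring on the median of all genes. With a minimum mean of 100, 1 member was called, because Aldh1a7 lies under that minimum and was not tested. Over all genes the Holm adjustment called 44 genes in place of 106. For the other retinoid genes and aldehyde dehydrogenases the count stayed at 0 with an adjusted p under 0.1 and with the minimum of 10. With all annotated exons joined as the length, an alternative chosen after seeing the data, Aldh1a1 took 59.9% and 68.2% of the 4 dehydrogenases in wild type and Apc-deleted cultures, and the sum was 2.05-fold higher. In the comparison of Th1 with the macrophage libraries, DESeq2's Wald test ended the call of Rarg. Its log2 fold changes were -4.11 (SE 1.45) for Rara and -4.15 (SE 2.08) for Rarg. Without a filter on low counts 6 members were tested with edgeR, and Rara stood at -6.05 (SE 0.53) and Rarg at -10.27 (SE 1.73). With DESeq2's size factors in edgeR the median log2 fold change of all tested genes was -4.32, against -5.61 with TMM and -6.25 with library totals. Rara stood at -4.11, -5.62 and -7.10 in the same order. Rara and Rarg passed the filter on low counts through the macrophage libraries, so their being lower under each scaling adds no support. Leaving out each macrophage library gave Rara an edgeR log2 fold change between -5.58 and -5.51, to which the same limit applies. Rara and Rarg were the 2 members at or above 1 TPM each time. No paired analysis was possible because the OPC table holds no value per library, so neither a replicate block nor leaving out a culture could be run. The unknown depth of the cultures and the 3051730 reads of the library labelled Th1 limit what could be detected.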

Other observations

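Outside the 9 members, several retinoid genes were abundant in the sorted libraries, and the genes named here were chosen after their values were seen. In the macrophage libraries the carrier gene Ttr, whose protein takes part in carrying retinol and thyroxine in plasma and cerebrospinal fluid, was at 192 ± 2.93 TPM (SD, n = 3) and had no read in the library labelled Th1. Cebpe, a transcription factor of late granulocyte development that is listed as a retinoic acid target, was at 28.8 ± 1.33 TPM (SD, n = 3), and Rdh12, a retinaldehyde reductase, at 11.3 ± 0.45 TPM (SD, n = 3). Of the aldehyde dehydrogenases outside the Aldh1a group, the mitochondrial Aldh2 stood at 43.5 ± 0.23 TPM and Aldh3b1 at 25.2 ± 0.68 TPM (SD, n = 3).

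The library labelled Th1 held some other genes of the pathway at high levels. It had no read for 11 of 15 retinol oxidation and retinal reduction genes, 16 of 22 target genes and 6 of 9 uptake and storage genes. This is 1 library of 3051730 reads. TPM is a share of all transcripts, so the levels set side by side here also depend on what else each library holds. Rarres2, which encodes the chemoattractant chemerin, had 869 reads and 414 TPM there and no read in the macrophage libraries. Rdh11, a retinaldehyde reductase, had 2686 reads and 299 TPM, against 0.83 ± 0.095 TPM (SD, n = 3) in the macrophage libraries. Rxra, the partner of the retinoic acid receptors, had 195 reads and 13.2 TPM against 0.57 ± 0.072 TPM (SD, n = 3), in a library where the receptors themselves had 1 read in all.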
